A study of Sus scrofa with 2 samples.

Results

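miR-204 and its relative miR-211 were followed in the small RNA of pig testis before and after sexual maturity. The members were all sequence tags named miR-204 or miR-211 once the species prefix, the copy number and the arm had been dropped. This gave 2 of the 1300 miRNAs in the lists, counted by name and arm: miR-204, the main arm from the 5′ side of its hairpin, and miR-204*, the arm from the 3′ side. No tag in either library was named miR-211. The tissue was whole testis from boars of Junmu-1, a white Chinese breed, at ages of 30 days (sexually immature) and 180 days (sexually mature). At each age the RNA of 3 boars was pooled into 1 library, so there is no spread between animals and no test, and every interval below covers counting error only. Reads assigned to miRNA entries numbered 7525725 in the 30-day library and 852209 in the 180-day one. Abundances are RPM, reads per 1000000 miRNA-matched reads of a library.

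A miRNA precursor is a hairpin that is cut into a short duplex, from which usually 1 strand is loaded into an Argonaute protein while the other, marked with a star, is degraded. The seed, bases 2 to 8 of the loaded strand, leads it to its target mRNAs. miR-204 and miR-211 are known to share their seed and to lie in introns of the related ion channel genes TRPM3 and TRPM1. miR-204 is best known from the retinal pigment epithelium, the lens and other epithelia, and miR-211 from melanocytes. In the RefSeq gene table of Sscrofa11.1 the pig gene MIR204 lies within the span of TRPM3, and 0 rows carry the symbol MIR211.

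The sequences below are the known miRNAs that the deposited lists match, followed by the most read pig form of the star arm. They show what was counted as each arm, 5′ to 3′ with T for U, with the seed in capitals.
miR-204, mouse entry: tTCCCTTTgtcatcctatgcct
miR-204*, rat entry: gCTGGGAAggcaaagggacgtt
miR-204*, most read pig form: gCTGGGAAggcaaagggacgt
miR-204*, platypus entry: cAGGGACAgcaaagggatga
The mouse and rat entries took all but 8 of the member reads. The platypus entry is a different sequence with another seed, and its 8 reads, in 7 tags of the 30-day library, each differed from it by 3 to 4 mismatched or unmatched bases. The counts of miR-204* below include them, since the name chose the members, and their effect is given beside the results. From which miRNA these 8 reads came was not tested.

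The star arm, miR-204*, was the more abundant arm at 30 days and was down to 3 reads at 180 days. In RPM the main arm, miR-204, did not differ between the libraries beyond counting error. miR-204 had 166 reads at 30 days, or 22.1 RPM (exact 95% interval 18.8 to 25.7), and 15 reads at 180 days, or 17.6 RPM (9.85 to 29.0). miR-204* had 252 reads at 30 days, or 33.5 RPM (29.5 to 37.9), and 3 reads at 180 days, or 3.52 RPM (0.726 to 10.3). The intervals of miR-204 overlap between the ages, and those of miR-204* lie far apart.

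**Figure D1:**
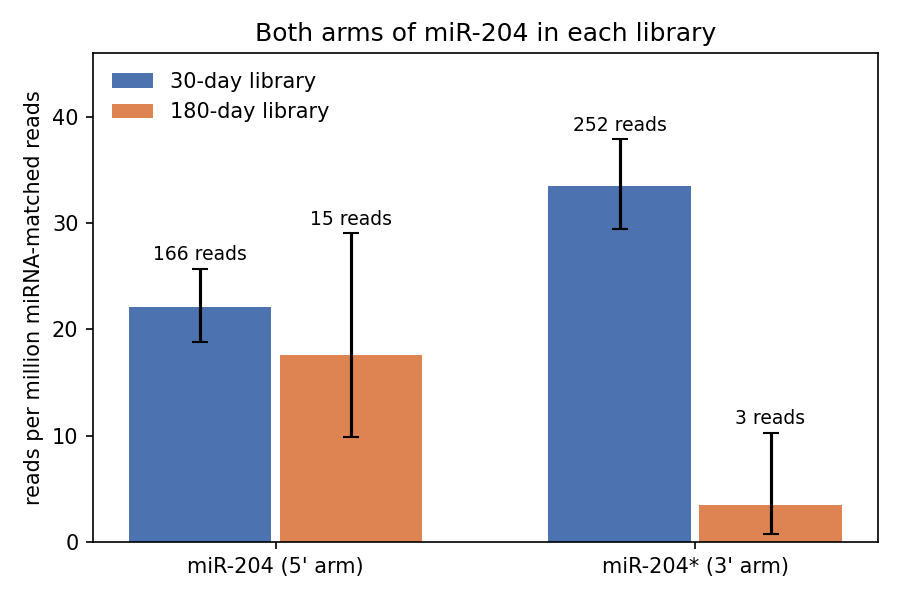
RPM of both arms of miR-204 in each library, 1 library per age; bars are RPM, error bars exact 95% counting intervals, and read counts stand above them. The main arm stands at 22.1 and 17.6 RPM with overlapping intervals, and the star arm at 33.5 and 3.52 RPM.

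Dividing the 180-day RPM by the 30-day RPM gave a ratio of 0.798 for miR-204, with an exact conditional 95% interval of 0.437 to 1.35. This range holds both an equal level and a ratio of 0.5, so neither a change nor its absence was shown at this depth. At the 30-day RPM, the 180-day total would have held 18.8 reads of miR-204, and 15 were found. For miR-204* the ratio was 0.105, which is 9.51-fold lower (3.22 to 46.4). At the 30-day RPM, 28.5 reads of miR-204* would have been found in the 180-day library in place of 3. Both arms together had 55.5 RPM before and 21.1 RPM after maturity, and a ratio of 0.380 (0.223 to 0.608). Most of the lower sum came from the star arm. Per miRNA read, a lower level was thus seen for miR-204* and for the sum of both arms, and was not shown for the main arm.

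The members were chosen by name with this contrast known, so the ratios are a description. With a ratio of 0.5 or less as the rule, 1 of the 2 arms was lower, beside 67 of the 427 miRNAs that had at least 20 reads in all, or 15.7%. Counted from the lowest ratio, miR-204* stood at place 4 of these 427 and miR-204 at place 131. Just inside the rule lay miR-148a with a ratio of 0.499, and just outside it miR-181a with 0.5003. Without the platypus entry miR-204* had 244 reads at 30 days and was 9.21-fold lower (3.11 to 45.0).

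**Figure D2:**
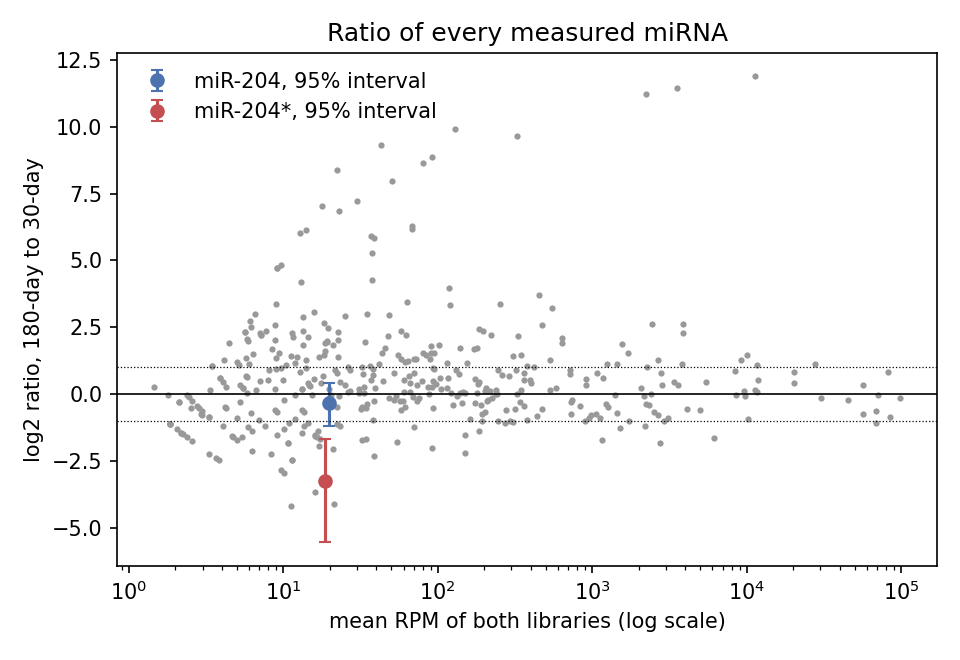
Log2 of the 180-day over the 30-day RPM against the mean RPM of both libraries, on a log scale, for the 427 miRNAs that had at least 20 reads in all (grey points, 3 reads standing in for 0); both arms of miR-204 carry exact 95% intervals, and dotted lines mark a 2-fold difference. At similar mean RPM, miR-204 lies near 0 at -0.33 and miR-204* at -3.25.

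The ratio of the main arm was below 1 on every scale tried, and its size and whether its interval held 1 depended on the scale. Tag numbers follow falling read counts and so bound the whole library, miRNA-matched or not, from below, at 12711254 reads at 30 days and 12035098 at 180 days. Against these lowest totals, miR-204 went from 13.1 to 1.25 reads per 1000000 reads, a ratio of 0.0954 (0.0522 to 0.162), and miR-204* from 19.8 to 0.249, a ratio of 0.0126 (0.00258 to 0.0372). On that scale every miRNA shifts by -3.06 in log2, and 361 of the 427 miRNAs, or 84.5%, had a ratio of 0.5 or less. The true totals may exceed these bounds by different amounts in each library. Ratios on that scale are therefore approximate, and their intervals leave this out. All values given below per whole library or per read of it use these lowest totals. TMM scaling shifted every log2 ratio by -0.42 and median-of-ratios scaling by -0.28. The ratio of miR-204 was then 0.595 (0.325 to 1.009) with TMM, an interval that only just reached 1. With median-of-ratios scaling it was 0.655 (0.359 to 1.11). The low value of miR-204 per read of the whole library is shared by most miRNAs, and the distance between the arms is the same on every scale.

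The share of each arm in the reads of the precursor needs no scaling. miR-204* took 60.3% of the reads of both arms at 30 days (252 of 418, exact binomial 95% interval 55.4 to 65.0%) and 16.7% at 180 days (3 of 18, 3.58 to 41.4%). miR-204 took the remaining 39.7% (35.0 to 44.6%) and 83.3% (58.6 to 96.4%). The leading arm at 30 days was thus the one named as the rarer, and at 180 days the order was the named one. Without the platypus entry the 30-day share of miR-204* was 59.5% (54.6 to 64.3%).

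Arm shares of other precursors mostly stayed close between the libraries. A minimum of 50 reads in each library, which miR-204 misses with 18 reads at 180 days, left 108 precursors, and 1 of them moved by at least 20 percentage points (0.926%). At a minimum of 10 reads, chosen after seeing the data, 7 of 134 did so (5.22%), miR-204 among them. By size of the move, miR-204 stood at place 2 of these 134, with a share of the star arm 43.6 points lower at 180 days, against a median of 1.14 points. In many of the 134 the rarer arm held almost none of the reads, such as miR-101* with 0.0027% and 0%. Such a share has little room to fall, which keeps the median small. Of the 100 precursors in this set with a star-named arm, the star arm was the more read arm at 30 days in 7. A share from 18 reads has a wide interval, and the place in this order inherits it.

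**Figure D3:**
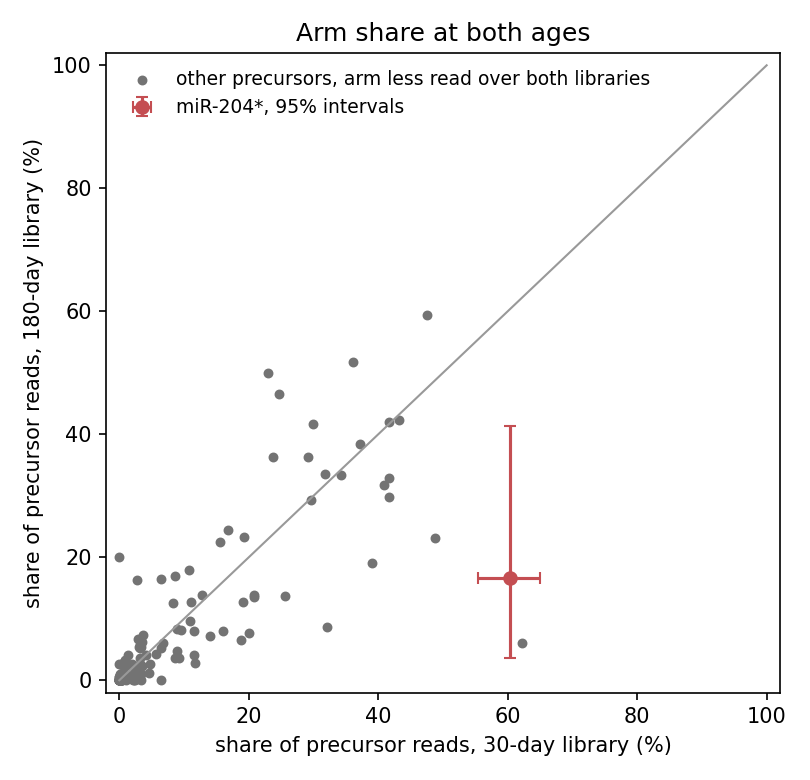
Share of precursor reads taken by miR-204* (red) and, for each other precursor, by the arm that was less read over both libraries (grey), in the 30-day library against the 180-day library, for 134 precursors with at least 10 reads in each; the grey line marks equal shares and the red bars are exact 95% intervals. miR-204* lies well below the line, at 60.3% and 16.7%.

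Predicted pairing of both strands shows the duplex that the counts describe. The most read form of each arm was folded against the other, and capitals mark the paired bases.
miR-204: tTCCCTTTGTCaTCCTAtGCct
miR-204*: GCTGGGAaGGCAAAGGGAcgt
The duplex had 17 pairs, 2 of them G with U, at a predicted energy of -25.2 kcal/mol. All 7 seed bases of miR-204 and 6 of the 7 of miR-204* were paired. At the 3′ ends 2 bases of miR-204 and 3 of miR-204* were left unpaired. Short 3′ overhangs are the usual product of Drosha and Dicer, the enzymes that cut miRNA hairpins.

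Among the tags of the main arm, 1 form led at both ages. The full mouse entry had 87 of the 166 reads at 30 days, 52.4% (44.5 to 60.2%), and 9 of 15 at 180 days, 60.0% (32.3 to 83.7%). In RPM this exact form stood at 11.6 and 10.6. All 6 forms of the 180-day library were among the 35 of the 30-day library. Reads starting at base 1 made up 83.7% at 30 days (77.2 to 89.0%) and all 15 at 180 days (78.2 to 100%).

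The next forms of miR-204 differ mainly at the 3′ end and within the run of C in the seed. They are shown because changes in the seed would alter targeting, and capitals mark bases that differ from the mouse entry or run past it.
10 reads at 30 days: ttccctttgtcatcctatgcctT
7 reads at 30 days, 1 at 180 days: ttccctttgtcatcctatgcctGT
4 reads at 30 days, 1 at 180 days: ttccctttgtcatcctatgcctG
10 reads at 30 days: tTcTtttgtcatcctatgcct
5 reads at 30 days: ttccTtttgtcatcctatgcct
Positions are counted from 1 at the 5′ end of the entry. The last of these carries C5T. The form of 21 bases above it is drawn without a gap, while the deposited alignment gives it 1 mismatch and 1 unmatched base. All 15 reads at 180 days had the seed letters of the entry (78.2 to 100%).

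Mismatches were more frequent in miR-204 reads than over the library at 30 days. Among the mismatched miR-204 reads, 1 form had 10 and another had 5. The intervals below take reads as independent, which reads of 1 form may not be. Tags without a mismatch held 77.7% of the miR-204 reads at 30 days (70.6 to 83.8%), against 87.7% of all miRNA-matched reads. For miR-204* reads of the rat entry the figure was 86.9% (82.0 to 90.9%), and at 180 days 14 of 15 miR-204 reads had none. The seed letters of the entry stood at bases 2 to 8 in 77.1% of the 30-day miR-204 reads (70.0 to 83.3%) and in 95.1% of the miR-204* reads (91.6 to 97.4%), against 92.5% of all reads. The lower figure of miR-204 counts shifted starts, changed bases and reads that may lack an inner base.

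The 3′ end of miR-204 lay at the end of the mouse entry in 76.5% of the 30-day reads (69.3 to 82.7%) and in 10 of 15 at 180 days. It lay past it in 15.7% (10.5 to 22.1%) and in 2 of 15. Of the 26 reads at 30 days that reached base 23, 15 had G there and 10 had T, and of the 10 that went on to base 24, 9 had T. Both reads that reached base 23 at 180 days had G. The genome of the pig was not used here, so whether these added bases are encoded was not tested.

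The star arm in the pig was shorter than the rat entry. At 30 days the most read form, of 21 bases, held 154 of the 244 reads of the rat entry, 63.1% (56.7 to 69.2%), and all 3 reads at 180 days were of this form. The full rat entry had 13 reads, 5.33% (2.87 to 8.94%), all of them at 30 days. Reads ended before the last base of the rat entry in 86.5% (81.5 to 90.5%), mostly 1 base before it. Placed without gaps, the start was at base 1 in 98.0% (95.3 to 99.3%), against 83.7% for the main arm. Part of this distance depends on the placing, since 10 main-arm reads placed at base 2 begin with the letters of their entry. Of the 33 reads that reached base 22, 15 had A there (T22A) and 17 had the T of the rat entry.
27 reads at 30 days: gctgggaaggcaaagggacg
6 reads at 30 days: gctgggaaggcaaagggacgtA
4 reads at 30 days: gctgggaaggcaaagggacgtAT
4 reads at 30 days: gctgggaaggcaaagggacgttT
These forms are shown because a count limited to exact copies of the rat entry would miss most of the arm. So limited, the share of miR-204* at 30 days would be 13.0% (7.11 to 21.2%) in place of 60.3%, since the leading pig form is not the rat entry.

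**Figure D4:**
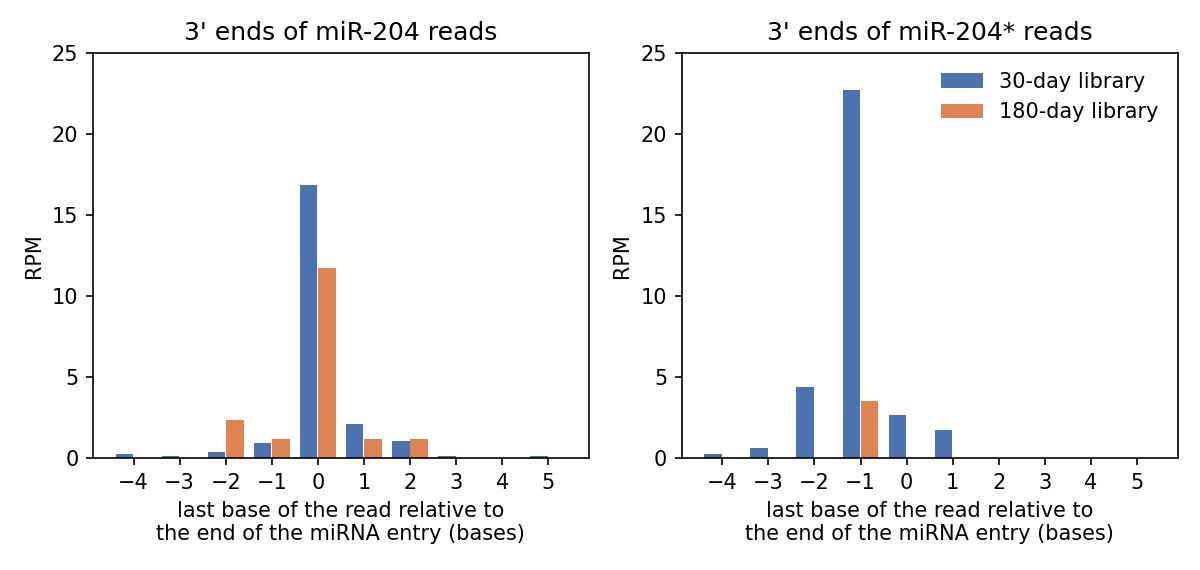
RPM of miR-204 (left) and miR-204* (right, reads of the rat entry) by the last base of the read relative to the end of the miRNA entry, in bases, for the 30-day and the 180-day library. Most miR-204 reads end with the mouse entry and most miR-204* reads 1 base before the end of the rat entry.

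Under its deposited name miR-211 had 0 reads in each library. With 3 reads taken as the limit that a count of 0 allows, in place of the exact interval used elsewhere, this bounds reads so named. The bound is 0.399 RPM at 30 days and 3.52 RPM at 180 days, and miR-211 reads under another name would not be in it. miR-204 had 22.1 and 17.6 RPM in the same libraries. miR-211 is known to differ from miR-204 after the seed, and 91.0% of the 30-day miR-204 reads (85.5 to 94.9%) carried the miR-204 letters at every base they covered from base 9 on. The lists name matched entries only, so they do not show whether an entry of miR-211 was searched. A further tag, named after a pufferfish entry as miR-204b and so outside the rule, had 1 read at 30 days and differed from miR-204 by C11T. Apart from that entry, none in the lists but the mouse entry had the seed of miR-204, and none but the rat entry had that of miR-204*.

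By abundance the arms changed places. At 30 days miR-204* stood at place 208 and miR-204 at place 235 of the 1104 miRNAs read. The neighbours of miR-204* there were miR-409-5p, with 256 reads, and miR-374a*, with 249, and those of miR-204 were miR-101b, with 177, and miR-30b*, with 163. At 180 days miR-204 stood at place 291 of 838, next to miR-545 with 16 and let-7e* with 14. miR-204* was then 1 of 40 miRNAs with 3 reads, between miR-935 with 4 and let-7f* with 2. Neighbours this close do not differ beyond counting error.

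The miRNAs whose ratio lay nearest, over the 2 libraries and among those with 100 or more reads, were different for each arm. Nearest to miR-204 were miR-125b* (0.803), miR-106b (0.807), miR-18a (0.786), miR-322 (0.784) and miR-423-5p (0.783). Nearest to miR-204* were miR-196b (0.131), miR-149 (0.139), miR-432 (0.0788), miR-487b (0.183) and miR-542-5p (0.184), each with 2 or 3 reads at 180 days. A ratio of 2 libraries is a thin measure of likeness.

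Other miRNAs in 2 lists, for retina with its pigment layer and for pancreatic islet, mostly had ratios above 1 per miRNA read. The sum of epithelial markers, given further below, had a ratio of 1.30, and of 0.972 with TMM scaling. Of the retinal list, 5 of 6 measured members had a ratio of 2 or more and 0 had 0.5 or less, beside 32.3% and 15.7% of all 427 miRNAs. The 5 were miR-182, miR-183 and miR-96, which belong to 1 cluster, and miR-9* and miR-184. The median log2 ratio was 3.82 in the list and 0.27 over all. The most read members were miR-182 (ratio 10.4, 8.96 to 12.1), miR-9* (72.5, 41.5 to 137) and miR-183 (19.2, 12.1 to 31.3). Of the list of pancreatic islet and neuroendocrine cells, where miR-204 is also known, 4 of 6 were at or past 2-fold higher and 0 lower, and the median was 2.34. These 4 were miR-129-3p, miR-129-5p, miR-184 and miR-375, so both arms of miR-129 count, and miR-184 is in both lists. Both lists were chosen with earlier results of these data known, so their counts are a description. The most read islet members miR-7 (1.64, 1.44 to 1.87) and miR-7* (1.10, 0.687 to 1.68) were not among the 4, while miR-129-3p was (15.5, 12.2 to 19.9). Per read of the whole library the counts were smaller. There 3 of the 6 retinal members stayed at 2-fold higher or more, with miR-182 at 1.24 (1.07 to 1.44), and miR-124 was lower at 0.173 (0.0791 to 0.341). Of the islet list 1 stayed higher, and miR-7 (0.196) and miR-7* (0.131) were lower.

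miRNAs that, like miR-204, lie in introns of protein-coding genes had a median log2 ratio of 0.01. Among 48 measured, 7 lay 2-fold higher (14.6%, against 32.3% of all miRNAs) and 9 lay 2-fold lower (18.8%, against 15.7%). Against the whole-library totals 0 lay 2-fold higher and 46 lay 2-fold lower (95.8%, against 84.5%). The most read were miR-140* (0.989, 0.981 to 0.997), miR-101 (0.859, 0.849 to 0.868) and miR-107 (1.11, 1.09 to 1.13). Of the list of Sertoli cells and gonadal soma, 0 of 9 lay 2-fold higher (32.3% of all) and 1 lay 2-fold lower (11.1%, against 15.7%), around a median of -0.58. With TMM scaling 5 of the 9 lay 2-fold lower (55.6%, against 24.8%), and per whole library all 9 did. Its most read members miR-199a-3p, miR-140* and miR-202-5p had ratios of 0.552 (0.547 to 0.557), 0.989 and 1.77 (1.75 to 1.78). The 4 forms of miR-199a and miR-214 in this list are also the mesenchyme markers used below. The list therefore does not stand for Sertoli cells alone.

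Sums of miRNAs used as cell type markers differed between the libraries beside these values. Such sums do not separate the makeup of the tissue from the level per cell. The spermatocyte and spermatid markers, 7 forms of miR-34b/c and miR-449, had a sum of 11.7 RPM before and 35280 RPM after maturity, with miR-449b* at 0 reads at 30 days. Markers of undifferentiated spermatogonia, 5 forms, went from 7983 to 3290 RPM. Their members went apart, with miR-222 at a ratio of 0.281 (0.264 to 0.299), miR-221 at 0.438 (0.412 to 0.465) and miR-146a at 4.59 (3.98 to 5.27). Markers of mesenchyme, 4 forms, went from 110694 to 61158 RPM. The 3 forms of miR-202, a marker of the gonadal soma, went from 68481 to 110872 RPM in sum. That sum followed miR-202-5p alone (1.77), while miR-202 (0.667, 0.644 to 0.691) and miR-202-3p (0.628, 0.597 to 0.660) were lower. Smooth muscle markers went from 6581 to 17994 RPM, endothelial ones from 381 to 629 RPM, and red cell ones from 1633 to 3857 RPM, the last through miR-451. White cell markers went from 186 to 214 RPM and epithelial ones from 73.7 to 96.2 RPM, with miR-429 at 44 and 0 reads. With TMM scaling the white cell and epithelial sums turned to ratios of 0.857 and 0.972, and median-of-ratios scaling turned the white cell sum to 0.944. Per read of the whole library every marker sum but that of spermatocytes and spermatids (361) was lower at 180 days, with ratios of 0.327 for smooth muscle, 0.283 for red cells, 0.197 for endothelium, 0.194 for miR-202, 0.156 for epithelium and 0.138 for white cells. In bulk tissue, fewer cells that hold miR-204 and less miR-204 per cell cannot be told apart, and the part of these shifts in the results was not tested.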

How the data were processed

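Small RNA of about 18 to 30 nucleotides was cut from a gel, given adapters, put through 15 cycles of PCR and read on an Illumina 1G instrument, per the labels' protocols. Per the labels no molecular identifiers are named, so reads are not independent molecules. For both libraries the authors deposited the distinct tags, each with its raw read count, sequence and 1 matching miRNA entry; these counts were used as deposited. The deposited alignment score, equal to 2 per match minus 1 per mismatch and 3 per unmatched base, was not used. The sources used here name no aligner, miRBase release or genome build.

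Members and lists were chosen with earlier results of these data known. Reads were summed by deposited name and arm. For all other miRNAs, entries of 1 name sharing 12 bases, or of any name identical over 17 or more bases at a shift of up to 3, were merged unless a species names them apart. A miRNA counted as measured from 20 reads in all, with 3 reads in place of 0 for log2 ratios. Intervals are exact (Clopper-Pearson, 95%). Named were the members, the 5 nearest ratios, the neighbours in abundance, the 3 most read of each list and the marker sums. Pairing was predicted with ViennaRNA 2.7.2 (duplexfold) and TMM factors came from edgeR 4.0.16. The ratio and its interval were run on counts simulated with counting error alone, the error that the interval assumes. That run checks the calculation and does not cover spread between animals or from PCR.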

Additional observations from a re-analysis of the deposited data

How the results depend on the processing

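With 15 and 3 member reads at 180 days, depth limits every ratio and share. The ratio of miR-204 lay between 0.595 and 0.977 under each scaling to miRNA reads and each choice of tags. Scaling to the whole library gave 0.0954 for miR-204, 0.0126 for miR-204* and 0.0455 for both arms. With exact full-length tags the ratio of both arms was 0.850 and the share of miR-204* 13.0% at 30 days and 0% at 180 days, because the leading pig form of miR-204* is not the rat entry. miR-204* alone then had 13 and 0 reads, which gives no ratio. The other alternatives, which include giving tags to their best sequence match, left miR-204* between 0.0783 and 0.122. The number of miRNAs lower by 2-fold, 67 of 427, was 106 with TMM and 361 per whole library, of the same 427, and 41 of 261 with exact tags. The number higher, 138 of 427, was 25 of 427 per whole library, 69 of 261 with exact tags and 72 of 294 with 100 or more reads. With 10 or more reads in each library, 7 precursors had a moved arm share in place of 1. No paired analysis was possible because there is 1 library per age. No alternative could be run for miR-211, which had no read under its name. Settings added after seeing the data were those without the platypus entry and each scaling of the lists and marker sums. Only part of their values is given beside the results. Per whole library the smooth muscle and red cell sums turned to 0.327 and 0.283.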

Other observations

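Other precursors whose arm share moved by 20 points or more between the libraries, with 10 or more reads in each, were few. They are given as values, chosen after they were seen. For miR-219 the share of the arm named miR-219 went from 62.2% of 37 reads to 6.06% of 66, a larger move than that of miR-204. For miR-132 the star arm went from 82 of 358 reads to 73 of 146, the 1 move among precursors with 50 or more reads in each library. The 3′ arm of miR-324 went from 48.8% to 23.1%, miR-485-3p from 32.1% to 8.70% and the star arm of miR-133a from 24.7% to 46.5%. miR-488 went from 0 of 18 reads to 2 of 10.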
